A study of Homo sapiens with 4 samples.

Results

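The 41 genes described here encode the machinery of macroautophagy and its cargo receptors, from the ULK kinase complex that starts an autophagosome to the receptors that load it. They were chosen by name and role, under a rule that sets no measured value, but with earlier results of these data known. All 41 were measured among the 18132 genes of the array, each read from the probe set whose signal averaged highest over the 4 arrays. All 41 also passed the filter on dim genes, which kept 10958 genes with at least 1 array at or above a log2 signal of 6.75, the median over gene probe sets. The arrays came from the A549 cell line, which was established from a human lung adenocarcinoma, collected after 48 h with 25 μmol/L dihydroberberine, with 2 μmol/L sunitinib, with both drugs at these doses (the combination), or with neither drug (untreated). Dihydroberberine derives from berberine, an alkaloid of plants, by reduction, and sunitinib blocks several receptor tyrosine kinases. The labels name no vehicle for the untreated cells, and all groups are a single cell line grown in the same medium with serum.

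Each condition held 1 array, so no test was run, and "higher" and "lower" compare single arrays. Values are log2 signals of a probe set, differences are between log2 signals, and a difference was counted when it reached 1.5-fold. Fewer cells that hold a transcript and less of it per cell cannot be told apart in such RNA. The 4 arrays had medians between 6.73 and 6.76, with pairwise Pearson correlations of 0.986 to 0.994 over gene probe sets. The dihydroberberine array stood apart: its Alu control probe set differed from untreated by -0.41 and its 18S rRNA probe sets by -0.63 on average, against 0.03 and -0.24 on the sunitinib array and 0.03 and -0.21 on the combination array. Its 3′ to 5′ difference for beta-actin was 0.63, against 0.82 to 0.91 on the other arrays. For dihydroberberine the comparison that does not use this array is the combination against sunitinib, and the part of these signals in the results was not tested. Of 10 markers of this airway epithelial line 8 lay at or above the filter level on every array, among them KRT8, KRT18 and NQO1. CDH1, the epithelial cadherin, lay between 4.45 and 4.90, under that level. Of 11 measured markers of other cell types, 4 were at or above it on each of the treated arrays and 5 on the untreated array, and their log2 signals summed to 73.3 with dihydroberberine, 69.9 with sunitinib, 69.7 in the combination and 73.7 untreated. PTPRC, the leukocyte marker CD45, was between 3.81 and 3.92, and CD14, a monocyte receptor, was at 6.75 with dihydroberberine, 6.27 with sunitinib and 5.76 in the combination, against 8.82 untreated. Their part in the results below was not tested.

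Macroautophagy encloses cytoplasm in a membrane that closes into an autophagosome and fuses with a lysosome. The ULK complex starts the process under the control of mTORC1 and AMPK, the class III PI3-kinase complex marks the membrane with phosphatidylinositol 3-phosphate, and conjugation enzymes attach proteins of the ATG8 family (LC3 and GABARAP) to lipid. Cargo receptors bind ubiquitin or an organelle on their cargo and ATG8 on the membrane, and TFEB and TFE3 are transcription factors of lysosomal and autophagy genes. Much of this control acts on proteins, which the arrays do not read, so transcript levels say nothing of how much autophagy took place.

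Differences were small, and none of the 41 genes reached 2-fold in any comparison on the probe set used. In the combination against untreated cells 9 members (22%) were at least 1.5-fold higher, which were ULK2, PIK3C3, ATG2B, ATG4C, ATG12, OPTN, TAX1BP1, TFEB and STX17, where 6.85% of all genes past the filter were. In the same comparison 2 members, ATG2A and GABARAPL1, were at least 1.5-fold lower, where 7.24% of all genes were. With dihydroberberine alone 4 members, PIK3C3, OPTN, TAX1BP1 and TFEB, were higher than untreated by this size, against 4.86% of all genes, and 2 members, BNIP3L and TFE3, were lower, against 12.6%. With sunitinib alone 1 member, TFEB, was higher, against 1.61% of all genes, and 0 were lower, against 3.78%. Members' median differences from untreated were 0.07 with dihydroberberine, -0.002 with sunitinib and 0.07 in the combination, beside -0.03, -0.04 and -0.02 over all genes. Without the filter the members' medians stayed the same, since all 41 pass it, and those over all genes were 0.05, 0.01 and 0.006. The 3 comparisons share the untreated array. All 3 treated arrays lay above it for 16 members (39%) and below it for 12 members (29.3%), where 24.8% and 33% of all genes did. With all probe sets of each gene averaged, which left 38 members past the filter, the combination had 4 higher members and 0 lower, beside 4.79% and 6.49% of all genes. Dihydroberberine alone had 1 and 0 on these averages, beside 3.82% and 9.56%. After quantile normalization dihydroberberine alone had 7 higher members and 2 lower, with ATG7, ATG12 and NBR1 added, and 751 higher and 1035 lower genes in all, against 533 and 1377 without it. For sunitinib alone the same step gave 217 higher and 294 lower genes in all, against 176 and 414 without it. A filter on the 75th percentile of signal left 26 members, of which 5 were higher in the combination and 1 was lower, beside 6.99% and 8.46% of all genes.

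**Figure D1:**
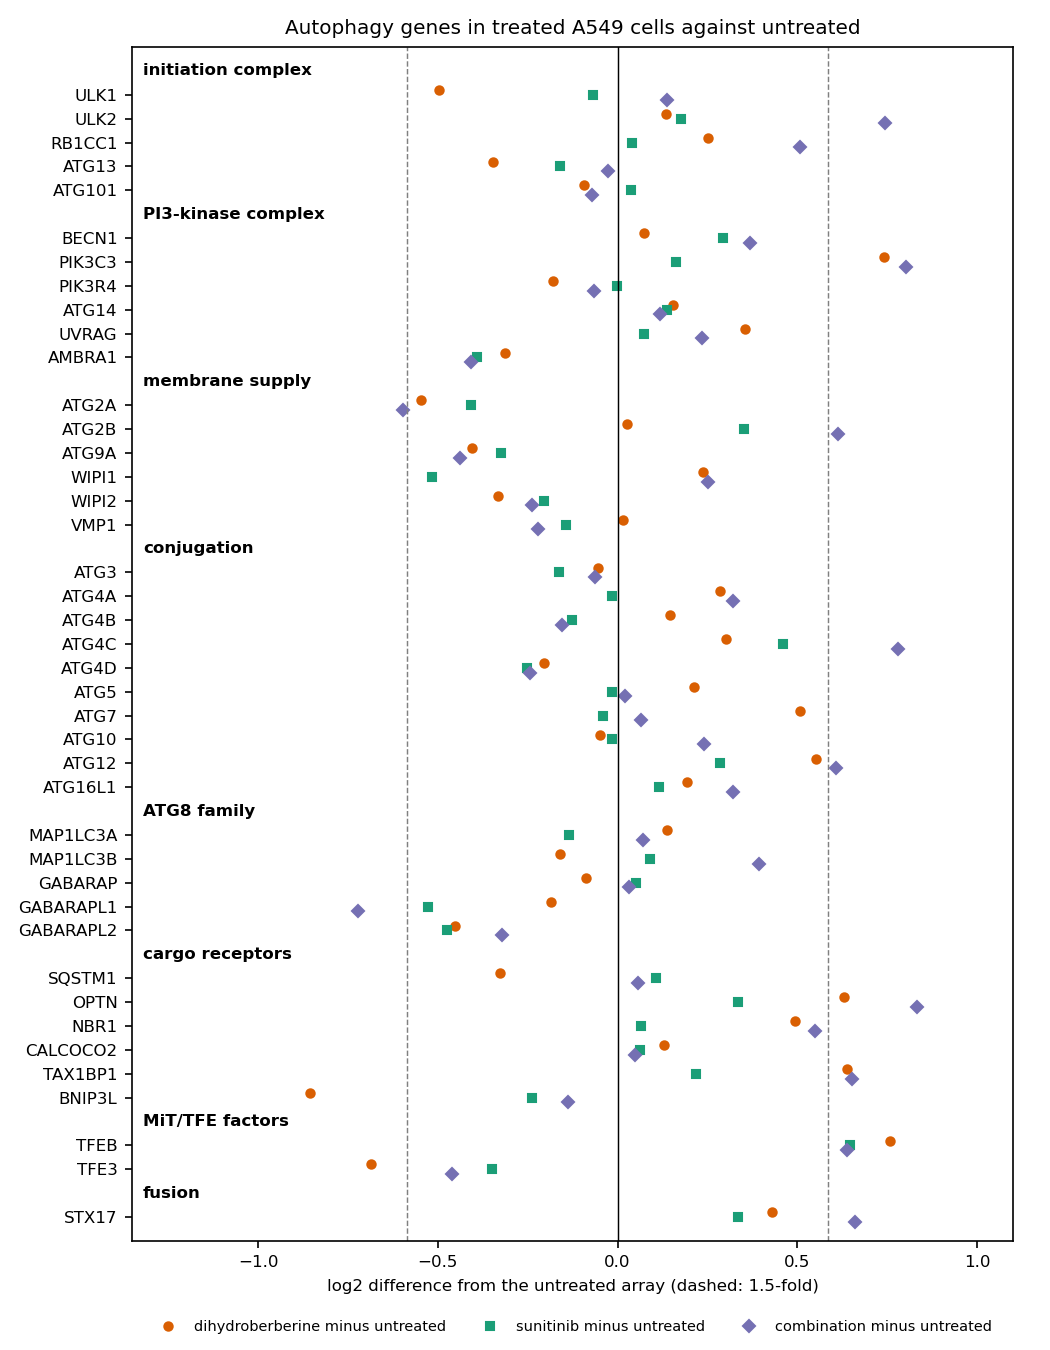
Log2 difference of each of the 41 autophagy genes from the untreated array (x axis), grouped by role down the page, for dihydroberberine (circles), sunitinib (squares) and the combination (diamonds); dashed lines mark 1.5-fold and each point is a single pair of arrays. PIK3C3, OPTN, TAX1BP1 and TFEB lie past the right line with dihydroberberine, and 9 diamonds lie past it for the combination.

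The initiation complex joins the kinases ULK1 and ULK2 with the scaffold RB1CC1 (FIP200), ATG13 and ATG101. ULK2 had log2 signals of 7.30 with dihydroberberine, 7.34 with sunitinib, 7.91 in the combination and 7.16 untreated. The combination array was highest, 1.68-fold above untreated and 1.53-fold above dihydroberberine, while each single drug lay within 0.18 of untreated. A second ULK2 probe set past the filter had only 0.17 in the combination against untreated and -0.10 against dihydroberberine, so the size was not shared between its probe sets and the direction against dihydroberberine was opposite. ULK1, the kinase that mTORC1 and AMPK phosphorylate, read 7.89 with dihydroberberine, 8.32 with sunitinib, 8.53 in the combination and 8.39 untreated on its single probe set. The dihydroberberine array was the low value of these 4, and the combination was 1.55-fold higher than it, yet differed from untreated by 0.14 only. That contrast rests on the dihydroberberine array, and sunitinib against untreated, which does not use it, gave -0.07 for ULK1. RB1CC1 was at 8.99, 8.78 and 9.25 with dihydroberberine, sunitinib and the combination, against 8.74 untreated, so that both arrays with dihydroberberine lay above both without it. ATG13 and ATG101 differed from untreated by -0.35 to 0.04 in all 3 treatments.

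The class III PI3-kinase complex holds the lipid kinase PIK3C3 (VPS34), its regulatory subunit PIK3R4 (VPS15), BECN1, and either ATG14 or UVRAG, and AMBRA1 binds BECN1. PIK3C3 had log2 signals of 10.05 with dihydroberberine, 9.48 with sunitinib, 10.11 in the combination and 9.31 untreated, from 1 probe set. Its 2 arrays with dihydroberberine lay above the 2 arrays without it and the groups did not overlap. The drug made a difference of 1.67-fold without sunitinib and of 1.56-fold in the combination against sunitinib, which share no array, and the combination was 1.74-fold above untreated. No other subunit reached 1.5-fold. BECN1, which recruits PIK3C3 to its complexes, was 11.48, 11.70 and 11.77 with dihydroberberine, sunitinib and the combination, against 11.41 untreated, with both sunitinib arrays above both arrays without it. AMBRA1 was lower than untreated by 0.31 to 0.41 in the 3 treatments, UVRAG was higher by 0.07 to 0.35, and PIK3R4 differed by -0.18 to -0.002. ATG14, the subunit that directs the complex to autophagosome formation, differed by 0.12 to 0.15.

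Promoters of these genes were searched for short motifs, since TFEB and TFE3 bind the letters CACGTG and several members differed in the same direction. The 250 bases before the annotated start were read from RefSeq for 35 of the 41 members (GRCh38.p14), and a gene counted if any of its starts held the motif on either strand. CACGTG was found for 2 of the 35 members, ATG3 and ATG14, and for 7.73% of the 27305 genes in the table. The longer core TCACGTGA, which contains CACGTG, was found for 0 members and for 1.04% of genes, and the ATF4 element TGATGCAA for 0 and 0.967%. The motifs were chosen after the values and these sequences had been seen, and a match describes letters only. The promoter of PIK3C3 is shown because its transcript was higher with dihydroberberine in both comparisons, with a CCAAT box in capitals (read as ATTGG on this strand), a motif of 37.1% of members and 37% of all genes. The promoter of ATG14 is shown for its CACGTG in capitals. They lie at chr18:41954984-41955233 on the plus strand and at chr14:55411831-55412080 on the minus strand, and both are written 5′ to 3′ up to the base before the start.
PIK3C3: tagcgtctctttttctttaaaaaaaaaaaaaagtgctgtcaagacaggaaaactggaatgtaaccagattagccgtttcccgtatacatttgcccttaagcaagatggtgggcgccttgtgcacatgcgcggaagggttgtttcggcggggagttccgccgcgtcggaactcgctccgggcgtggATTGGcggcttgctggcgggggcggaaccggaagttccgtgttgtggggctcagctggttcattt
ATG14: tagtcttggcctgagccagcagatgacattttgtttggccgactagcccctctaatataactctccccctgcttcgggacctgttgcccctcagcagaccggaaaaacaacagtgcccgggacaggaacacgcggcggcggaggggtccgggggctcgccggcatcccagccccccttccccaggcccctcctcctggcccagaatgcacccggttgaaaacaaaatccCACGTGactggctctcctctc

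Membrane for the growing autophagosome is supplied by the lipid scramblase ATG9A, the lipid transfer proteins ATG2A and ATG2B, the phosphoinositide readers WIPI1 and WIPI2, and VMP1, a scramblase of the endoplasmic reticulum. The 2 paralogous ATG2 genes lay on opposite sides of untreated. ATG2A had 7.84 with dihydroberberine, 7.98 with sunitinib, 7.79 in the combination and 8.39 untreated, so all treated arrays were lower and the combination was 1.51-fold below untreated. Another ATG2A probe set with other values gave -0.23 in the combination, under the counted size. ATG2B had 8.45, 8.77 and 9.03 with dihydroberberine, sunitinib and the combination, against 8.42 untreated. Its sunitinib arrays were both above those without sunitinib, with differences of 0.35 from untreated and 0.59 between the combination and dihydroberberine, and the combination was 1.53-fold above untreated. A second ATG2B probe set gave 0.35 for the combination against dihydroberberine and 0.35 against untreated, under the counted size. ATG9A was 7.76 with dihydroberberine, 7.85 with sunitinib and 7.73 in the combination, against 8.17 untreated, so all treated arrays were lower.

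WIPI1 had log2 signals of 9.87 with dihydroberberine, 9.12 with sunitinib, 9.88 in the combination and 9.63 untreated. The sunitinib array was the low value, 1.43-fold below untreated, and the combination was 1.70-fold above sunitinib, so that both arrays with dihydroberberine lay above both without it. A second WIPI1 probe set gave 0.87 for the combination against sunitinib and -0.43 for sunitinib against untreated. The differences of WIPI2 from untreated ran from -0.33 to -0.20, and those of VMP1 from -0.22 to 0.01. For WIPI2 the 2 other probe sets past the filter gave -0.30 and 0.33 in the combination against untreated.

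The conjugation enzymes comprise ATG7 and ATG10 or ATG3, which act as E1 and E2 enzymes, the ubiquitin-like ATG12, ATG5 and ATG16L1, which form the E3-like complex, and the ATG4 proteases, which trim ATG8 proteins and release them from lipid. Of these 10 genes 7 had a positive difference with dihydroberberine, at a median of 0.20, and 9 had one in the combination against sunitinib, at a median of 0.15, where 46.9% and 50.7% of all genes were positive. ATG4C had 8.08 with dihydroberberine, 8.24 with sunitinib, 8.56 in the combination and 7.78 untreated. All 3 treated arrays lay above untreated, the combination by 1.72-fold, and its second probe set gave 0.63 for that comparison, also past 1.5-fold. The addition of sunitinib made a difference of 1.38-fold without dihydroberberine and of 1.39-fold with it. Signals of ATG12 were 9.90, 9.64 and 9.96 with dihydroberberine, sunitinib and the combination, against 9.35 untreated, which made the combination 1.52-fold higher. Its second probe set, dimmer and under the filter level on 3 of the 4 arrays, had -0.13 in that comparison. ATG7 was 8.80 with dihydroberberine and between 8.25 and 8.36 on the other 3 arrays, so its 1.42-fold difference with dihydroberberine was 1.07-fold in the combination against sunitinib. The 2 other ATG7 probe sets gave 0.40 and -0.24 for dihydroberberine against untreated. For ATG4A, both arrays with dihydroberberine were above both without it, at 8.66 and 8.69 against 8.36 and 8.37. On the probe sets used, ATG3, ATG4B, ATG4D, ATG5, ATG10 and ATG16L1 differed from untreated by -0.25 to 0.32. Some further probe sets lay outside this range. The 5 others of ATG4B ran from -0.51 to 0.28 with dihydroberberine and from -0.63 to 0.24 with sunitinib. The 2 others of ATG5 gave 0.23 and 0.62 in the combination, the latter past 1.5-fold.

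Proteins of the ATG8 family are attached to the autophagosome membrane and hold the cargo receptors there. GABARAPL1 was at 9.05 with dihydroberberine, 8.70 with sunitinib, 8.51 in the combination and 9.23 untreated. Both arrays with sunitinib lay below both without it, by 1.44-fold in sunitinib against untreated and by 1.45-fold in the combination against dihydroberberine, which share no array. The combination was 1.65-fold below untreated, and 2 further probe sets gave -0.99 and -0.48 there. On the probe set used, GABARAPL1 was the only member lower with sunitinib by at least 0.32 on the log2 scale in both comparisons, where 4.85% of all genes were. Its 2 further probe sets gave -0.67 and -0.15 for sunitinib against untreated, the latter under that size. They gave -0.66 and -0.65 for the combination against dihydroberberine. GABARAPL2 had 11.19, 11.17 and 11.32 with dihydroberberine, sunitinib and the combination, against 11.64 untreated, all below untreated, by 0.45, 0.47 and 0.32 on the log2 scale. Its 3 other probe sets gave -0.13 to 0.01 in the combination, so only the single drugs were lower on every probe set. MAP1LC3B, the LC3B gene, read 10.94 with dihydroberberine, 11.19 with sunitinib, 11.50 in the combination and 11.10 untreated. The combination was 1.31-fold above untreated for LC3B, but 3 further probe sets gave between -0.20 and 0.29, so its direction against untreated is not settled. All 4 probe sets were higher in the combination than with sunitinib, by 0.28 to 0.36, and than with dihydroberberine, by 0.12 to 0.60. MAP1LC3B has a near-identical copy, MAP1LC3B2, so which gene gives its signal is uncertain. GABARAP lay between 12.72 and 12.86 on all 4 arrays, and MAP1LC3A between 7.06 and 7.34. The promoter of GABARAPL1 is shown because its transcript was lower with sunitinib in both comparisons, and the capitals mark a cyclic AMP response element, TGACGTCA, found for 1 of 35 members and 2.03% of genes. It lies at chr12:10212627-10212876 on the plus strand and is written 5′ to 3′.
GABARAPL1: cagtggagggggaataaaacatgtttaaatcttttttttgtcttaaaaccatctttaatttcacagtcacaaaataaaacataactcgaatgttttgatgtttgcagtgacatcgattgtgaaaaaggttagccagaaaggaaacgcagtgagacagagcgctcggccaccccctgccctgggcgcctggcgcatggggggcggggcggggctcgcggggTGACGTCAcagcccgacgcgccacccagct

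Among the cargo receptors, OPTN, TAX1BP1 and NBR1, which bind ubiquitin on aggregates, mitochondria or bacteria, were higher with dihydroberberine both without and with sunitinib. OPTN, optineurin, had log2 signals of 9.13 with dihydroberberine, 8.84 with sunitinib, 9.33 in the combination and 8.50 untreated. The untreated array was the low value and the combination the high value, with 1.55-fold for dihydroberberine against untreated, 1.41-fold for the combination against sunitinib and 1.78-fold for the combination against untreated. A second OPTN probe set gave 0.51, 0.55 and 0.77 in these comparisons, of which only the last reached the counted size, and a dim one under the filter level on every array gave -0.25 for dihydroberberine. TAX1BP1 had 11.74 with dihydroberberine, 11.32 with sunitinib, 11.75 in the combination and 11.10 untreated. Its 2 arrays with dihydroberberine did not overlap those without it and differed by 1.56-fold and 1.35-fold. The other 4 probe sets gave 0.49 to 0.57 against untreated and 0.34 to 0.49 against sunitinib, all positive and all under the counted size. NBR1 had 10.01 with dihydroberberine, 9.58 with sunitinib, 10.07 in the combination and 9.52 untreated, which is 1.41-fold and 1.40-fold, again with no overlap. Its other 4 probe sets past the filter gave 0.69 to 0.80 for dihydroberberine against untreated, larger than the printed 0.49 and past 1.5-fold.

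SQSTM1 (p62), the receptor that itself is degraded by autophagy, had 13.39 with dihydroberberine, 13.82 with sunitinib, 13.77 in the combination and 13.71 untreated. Only the dihydroberberine array was lower, at -0.33 from untreated, and all 5 probe sets were negative there. In the combination against sunitinib, which does not use that array, SQSTM1 differed by -0.05. CALCOCO2 (NDP52), a receptor for bacteria and mitochondria, lay between 10.23 and 10.36 on the 4 arrays. BNIP3L (NIX), a mitophagy receptor of the outer mitochondrial membrane, had 9.56 with dihydroberberine, 10.17 with sunitinib, 10.27 in the combination and 10.41 untreated. The dihydroberberine array was low, 1.81-fold below untreated, and the combination was 1.64-fold above it and differed from sunitinib by 0.10. The other 5 probe sets of BNIP3L, of which a pair held identical values, showed a different pattern. They gave -0.46 to -0.29 for dihydroberberine, -0.71 to -0.44 for sunitinib and -0.60 to -0.39 for the combination, and -0.21 to -0.05 for the combination against dihydroberberine. All 6 were thus lower than untreated in each treatment, whereas the higher value in the combination than with dihydroberberine was seen in the probe set of highest mean alone.

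The promoter of OPTN is shown because its transcript was higher with dihydroberberine in both comparisons and because the gene is a known target of NF-kB. It lies at chr10:13099832-13100081 on the plus strand, before 1 of its 2 annotated starts, and is written 5′ to 3′. The capitals mark overlapping matches to the NF-kB motif, which begin 12 and 11 bases before the start, 1 on each strand. The motif was found for 3 of 35 members (BECN1, OPTN and TFE3) and for 6.28% of genes.
OPTN: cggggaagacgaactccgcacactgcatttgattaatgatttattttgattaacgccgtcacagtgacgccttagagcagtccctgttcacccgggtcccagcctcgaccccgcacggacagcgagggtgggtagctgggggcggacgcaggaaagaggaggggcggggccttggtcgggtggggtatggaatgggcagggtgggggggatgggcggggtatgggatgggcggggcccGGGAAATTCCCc

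**Figure D2:**
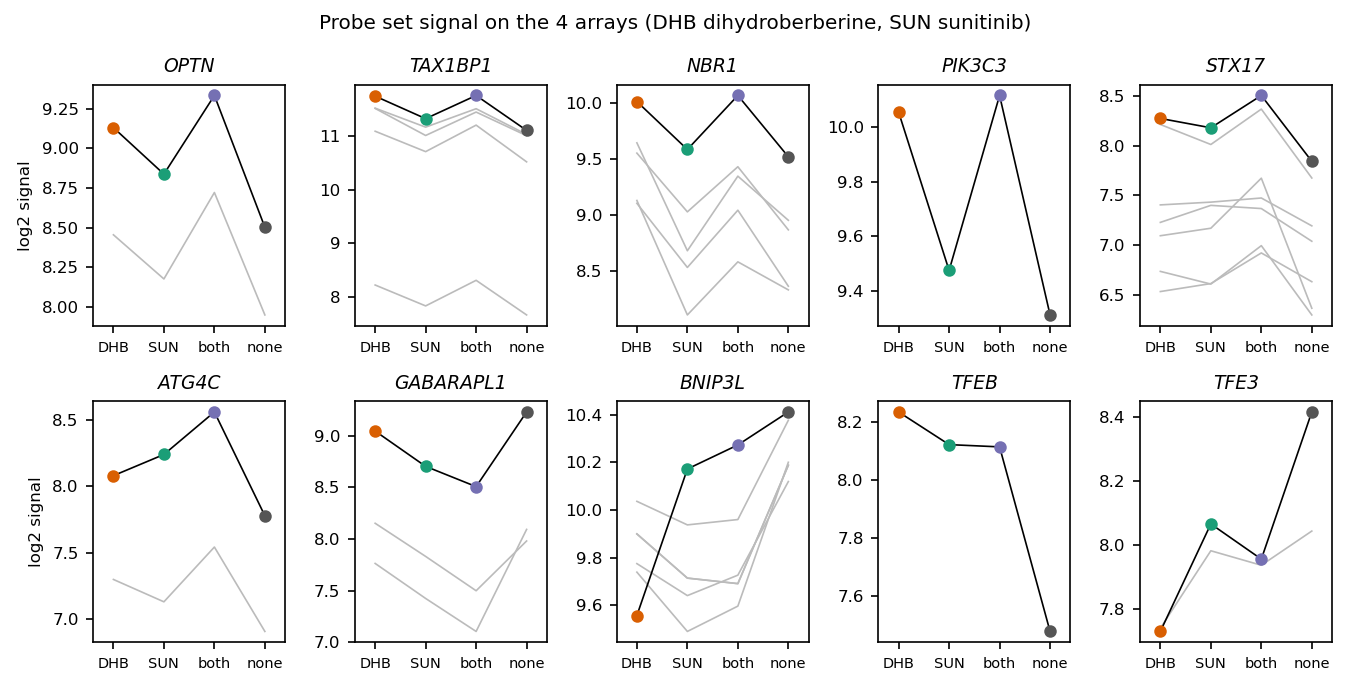
Log2 signal (y axis, a separate scale for each gene) on the dihydroberberine, sunitinib, combination and untreated arrays for 10 members; coloured points joined in black are the probe set of highest mean and grey lines are the other probe sets past the filter. OPTN, TAX1BP1, NBR1 and PIK3C3 are high on both arrays with dihydroberberine, and the black line of BNIP3L departs from its grey lines on the dihydroberberine array.

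TFEB and TFE3 are kept in the cytoplasm when mTORC1 is active and enter the nucleus on starvation. Their transcripts lay on opposite sides of untreated. TFEB had 8.24 with dihydroberberine, 8.12 with sunitinib, 8.11 in the combination and 7.48 untreated. All 3 treated arrays were above untreated, by 1.69-fold, 1.56-fold and 1.56-fold, and they lay within 0.12 of each other. These 3 values share the untreated array, and in the comparisons without it TFEB differed by -0.008 (combination against sunitinib) and -0.12 (combination against dihydroberberine). Its second probe set lay under the filter level on every array, between 4.35 and 4.52. TFE3 had 7.73 with dihydroberberine, 8.06 with sunitinib, 7.95 in the combination and 8.41 untreated, all lower than untreated, by 1.61-fold, 1.27-fold and 1.38-fold. TFE3 differed by -0.11 in the combination against sunitinib. A second TFE3 probe set gave -0.30, -0.06 and -0.11, all under the counted size. STX17, the syntaxin that joins autophagosomes to lysosomes, had 8.27 with dihydroberberine, 8.18 with sunitinib, 8.50 in the combination and 7.84 untreated. Every treated array was above untreated, the combination by 1.58-fold, and all 6 further probe sets past the filter were positive there, from 0.28 to 1.30.

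The effect of dihydroberberine can be read from pairs of arrays that have none in common, with dihydroberberine against untreated and the combination against sunitinib. PIK3C3, ATG12, OPTN, NBR1, TAX1BP1 and STX17 were higher by at least 0.32 on the log2 scale in both, which is 6 of 41 members (14.6%), where 6% of all genes were. No member (0 of 41) was lower by this size in both, where 4.64% of all genes were. ATG12 and STX17 only just reached this size in the combination against sunitinib, at 0.322 and 0.324. The second ATG12 probe set gave -0.55 there. The 6 other STX17 probe sets past the filter ran from -0.03 to 0.50 there, and from -0.10 to 0.73 for dihydroberberine against untreated. The 2 arrays with dihydroberberine lay above both arrays without it for 14 members (34.1%), against 19.5% of all genes, and below both for 6 members (14.6%), against 22%. These 14 held RB1CC1, UVRAG, WIPI1, ATG4A, ATG5, ATG7, ATG16L1 and MAP1LC3A besides the 6 genes above. The 6 lower genes were ATG101, PIK3R4, ATG2A, ATG9A, WIPI2 and TFE3. WIPI2 differed by only -0.03 in the combination against sunitinib, where its 2 other probe sets past the filter gave 0.13 and 0.18. These counts of separated arrays, and those of all treated arrays on one side of untreated, were chosen after the values had been seen. Members' medians were 0.07 without sunitinib and 0.10 with it, beside -0.03 and 0.004 over all genes, and 28 of 41 members (68.3%) kept their sign, where 62.1% of all genes did. Without the filter the medians over all genes were 0.05 and -0.02. In the combination against sunitinib 2 members, PIK3C3 and WIPI1, were at least 1.5-fold higher, where 3.58% of all genes were, and 0 were lower, where 1.47% were.

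**Figure D3:**
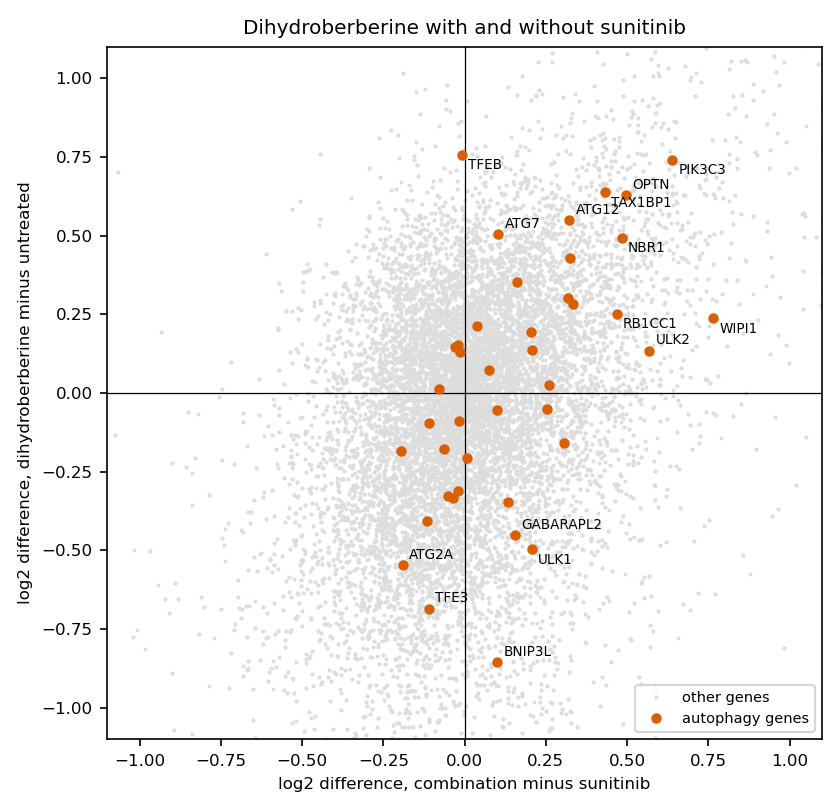
Log2 difference made by dihydroberberine in the combination against sunitinib (x axis) and against untreated (y axis), for the 41 autophagy genes (orange) over all genes past the filter (grey, of which 403 lie outside the axes). PIK3C3, OPTN, TAX1BP1 and NBR1 lie in the upper right, while BNIP3L and ULK1 are low on the y axis only.

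For sunitinib the pairs with no array in common are sunitinib against untreated and the combination against dihydroberberine. ATG2B and ATG4C were higher by at least 0.32 in both (4.88% of members), where 3.74% of all genes were, and GABARAPL1 was lower in both, as given above. In these comparisons the second probe set of ATG2B gave 0.20 and 0.35, and that of ATG4C 0.22 and 0.24. Both sunitinib arrays were above both arrays without it for 7 members (17.1%), ULK2, BECN1, ATG2B, ATG4C, MAP1LC3B, GABARAP and SQSTM1, against 16.5% of all genes. They were below for 6 members (14.6%), AMBRA1, VMP1, ATG3, ATG4B, ATG4D and GABARAPL1, against 20.5%. Further probe sets did not always share the sign for sunitinib against untreated. That of ULK2 gave -0.45 and the 3 of MAP1LC3B gave -0.49 to -0.06. Those of GABARAP (-0.22 to 0.05), SQSTM1 (-0.11 to 0.21), ATG3 (-0.07 to 0.10) and ATG4B (-0.63 to 0.24) held both signs. Those of BECN1, ATG2B and ATG4C were all positive. The sign was kept for 27 of 41 members (65.9%), beside 58.4% of all genes. In the combination against dihydroberberine 4 members, ULK1, ULK2, ATG2B and BNIP3L, were at least 1.5-fold higher and 0 were lower, where 10.3% and 2.75% of all genes were, so the members' share lay near that of all genes. After quantile normalization this split became 1 higher (BNIP3L) and 1 lower (GABARAPL1), where 8.84% and 3.82% of all genes were. Sunitinib against untreated, which does not use the dihydroberberine array, had 1 higher member and 0 lower.

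**Figure D4:**
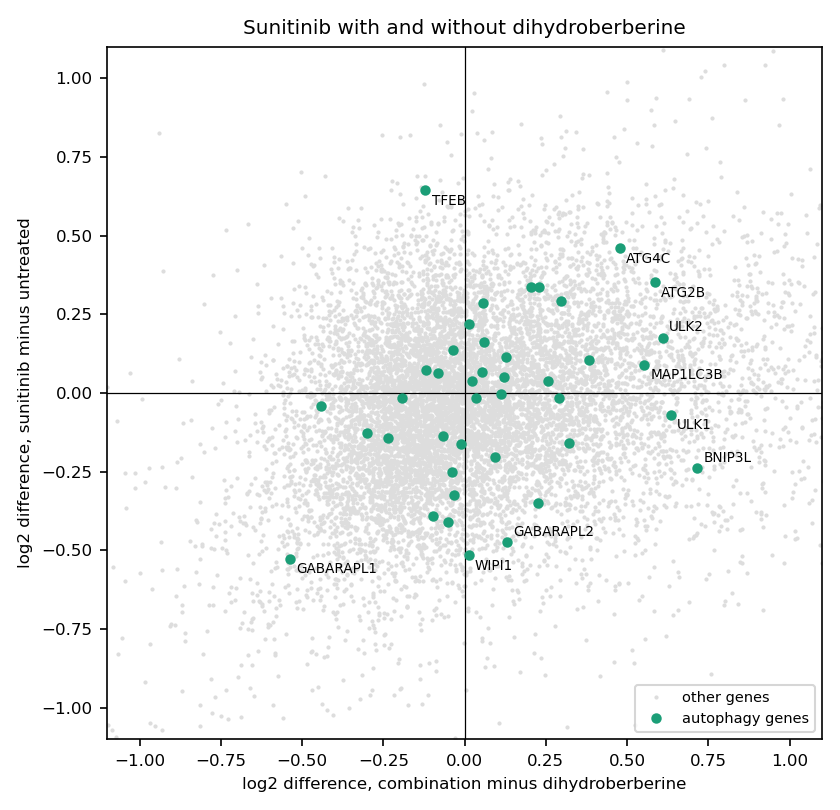
Log2 difference made by sunitinib in the combination against dihydroberberine (x axis) and against untreated (y axis), for the 41 autophagy genes (green) over all genes past the filter (grey, of which 305 lie outside the axes). ATG4C and ATG2B lie in the upper right and GABARAPL1 in the lower left, while BNIP3L and ULK1 are high on the x axis only.

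The deviation from additivity, computed on the log2 scale by subtracting both single drugs from the combination and adding untreated, reached 1.5-fold for 4 members. BNIP3L had 0.96, ULK1 0.70 and GABARAPL2 0.61, so the combination array was higher than the single drugs would add up to, where 12.2% of all genes deviated upward. TFEB had -0.77, where 3.73% of all genes deviated downward, where each single drug and the combination had differences of similar size. For GABARAPL2 the 3 other probe sets gave deviations of 0.54, 0.56 and 0.66, of which only the last reached 1.5-fold, and after quantile normalization its deviation was 0.50, under that size. MAP1LC3B deviated by 0.46 on the probe set used, under 1.5-fold. Its 3 other probe sets gave 0.51, 0.66 and 0.81, of which the first did not reach that size. On the probe sets used, OPTN, PIK3C3, NBR1, ATG4C and GABARAPL1 lay between -0.13 and 0.02, close to the sum of the single drugs. Further probe sets gave 0.04 for OPTN and 0.02 for ATG4C, but -0.32 to -0.03 for NBR1 and -0.50 and 0.01 for GABARAPL1. The 3 upward deviations and that of TFEB use all 4 arrays, the dihydroberberine array among them. Quantile normalization turned the split over all genes to 923 upward and 627 downward, against 1332 and 409 without it. Members' median was 0.07, beside 0.06 over all genes.

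Other genes of the pathway came from 5 further lists. The list of further selective receptors also holds the kinase TBK1. Of its 21 genes past the filter, 3 were at least 1.5-fold higher in the combination than untreated and 1 was lower. Their median was 0.05, and 6.85% of all genes were higher and 7.24% lower. RETREG1 (FAM134B), a receptor for endoplasmic reticulum, had 8.36 with dihydroberberine, 8.05 with sunitinib, 8.63 in the combination and 7.51 untreated. All treated arrays were above untreated, the combination by 2.16-fold. CCPG1, a further receptor for endoplasmic reticulum, was 1.72-fold higher in the combination and TBK1, the kinase that phosphorylates OPTN and SQSTM1, 1.54-fold. BNIP3, the paralog of BNIP3L, was 1.57-fold lower in the combination and 1.53-fold lower with sunitinib, with 12.58, 12.53 and 12.49 on the dihydroberberine, sunitinib and combination arrays, against 13.15 untreated. ATL3, an atlastin that acts as a receptor for endoplasmic reticulum, was 1.96-fold below untreated with dihydroberberine alone and the combination exceeded dihydroberberine by 2.39-fold, but in the combination against sunitinib, which does not use that array, ATL3 differed by 0.04.

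Of 19 further core factors, 5 were lower with dihydroberberine alone and 1 was higher, where 12.6% of all genes were lower and 4.86% higher. Their median was -0.22, beside -0.03 over all genes, while 0 were past 1.5-fold in the combination against sunitinib. TBC1D14, a negative regulator of autophagosome formation, was 1.91-fold lower with dihydroberberine and TECPR1, a tethering factor, 1.90-fold, though against sunitinib the combination had 0.10 and 0.54, whereas WDR45, a further phosphoinositide reader, differed from untreated by 0.73, and by 0.57 in the combination against sunitinib, and is named here, as the only higher one of the 19, after its value was seen. In the combination TP53INP2, a cofactor that binds ATG8 proteins, was 1.51-fold lower than untreated, the only one of the 19 past 1.5-fold there. Of 17 fusion factors, 5 were lower with dihydroberberine alone and 0 higher, beside the same 12.6% and 4.86% of all genes, and in the combination against sunitinib 0 passed in either direction. The lower ones were led by PLEKHM1, an adaptor of RAB7, at 2.87-fold, and SNAP29, the partner of STX17, at 1.79-fold. In the combination against sunitinib PLEKHM1 and SNAP29 differed by 0.05 and 0.04.

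Of 27 regulators of MiT/TFE factors and mTORC1, 8 were lower with dihydroberberine alone and 1 was higher, at a median of -0.12, where 12.6% of all genes were lower and 4.86% higher. Against untreated, the combination had 6 that were higher and 1 that was lower, where 6.85% and 7.24% of all genes were. Against sunitinib, 2 were higher and 1 was lower in the combination, where 3.58% and 1.47% of all genes were. RPTOR, the raptor subunit of mTORC1, was 2.34-fold and FLCN, folliculin, 2.27-fold below untreated with dihydroberberine alone, but in the combination against sunitinib they differed by -0.08 and -0.26. RRAGD, a RAG GTPase and known target of TFEB, was 9.28 with dihydroberberine, 9.16 with sunitinib, 9.84 in the combination and 8.98 untreated, which made the combination 1.81-fold higher. SESN1 and SESN3 encode sestrins, which restrain mTORC1. SESN1 was 1.85-fold higher and SESN3 2.28-fold lower in the combination than untreated. Of the lysosomal genes with CLEAR elements, the TFEB binding sites, 34 were measured and 32 passed the filter, and these 32 had medians of -0.001, -0.05 and 0.005 with dihydroberberine, sunitinib and the combination against untreated. In the combination 2 of them were higher, RRAGD and ATP6V1C1, a proton pump subunit (1.69-fold), and 2 were lower, CTSZ, cathepsin Z (2.73-fold), and PPARGC1A (2.20-fold). PPARGC1A is on this list but encodes a coactivator of mitochondrial genes rather than a lysosomal protein. These counts lie near the 6.85% of all genes that were higher and the 7.24% that were lower.

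The members' values also differed between probe sets of the same gene. Over the 32 members with at least 2 probe sets past the filter, the median SD between them was 0.10 for dihydroberberine against untreated, 0.13 for sunitinib and 0.13 for the combination, close to 0.14, 0.13 and 0.13 over 6407 genes. Of these 32 members 23, 19 and 24 had the same sign in every probe set in these comparisons. This spread is between probe sets on the same arrays and does not measure the error between cultures. Of the 41 probe sets used, 19 carry the suffix that the manufacturer gives to sets whose probes may also match other transcripts, among them those of OPTN, NBR1, STX17, ATG12 and GABARAPL1. The lowest of the members' values was 7.06 and the highest 13.8, and all 41 lay above the median of the background probes holding 15 to 25 bases that are G or C (7.15 with dihydroberberine, 6.99 with sunitinib, 6.95 in the combination and lower still untreated). ULK2, UVRAG and MAP1LC3A lay less than 1 log2 unit above that median on every array.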

How the data were processed

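Total RNA of A549 cells was hybridised to 4 arrays, 1 per condition. The deposited values are log2 signals per probe set, already summarised by the authors with Affymetrix Expression Console, per the submitters' processing notes; the sources used here give neither its version nor the background correction or scaling. An Agilent array is named in the design text and a Cy3 dye in the label field, whereas the label protocol describes biotin-labelled cRNA of a GeneChip kit, and the probe set names and control probe sets are those of Affymetrix.

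Of 49395 probe sets 102 were controls. Of the other 49293, 44988 had 1 gene symbol in GEO's platform annotation, 1832 had several and 2473 had none, and only the first were used. RefSeq held the symbols of 44967 of them, and 0 symbols needed an update. Each gene took its probe set of highest mean over the 4 arrays, and genes with no array at log2 6.75 (the median, the 50th percentile, of gene probe sets) were left out. With 1 array per condition no test was run. Their number limits the precision, and no error between cultures can be given. Differences of log2 signals were counted at 1.5-fold and read against the share of all genes past the filter.

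The 41 members and all gene lists were chosen with earlier results of these data known. Members were described in full where they differed by 1.5-fold from untreated, or between the combination and a single drug, or by a log2 difference of 0.32 in the same direction in both comparisons of a drug that share no array. From each further list up to 4 genes of largest difference per comparison could be named. Alternatives were the mean of a gene's probe sets, no filter, a filter at the 75th percentile, quantile normalization, fold sizes of 2 and of 0.32 on the log2 scale, and, chosen after seeing the data, the probe set of second highest mean and comparisons without the dihydroberberine array. The steps were tested on simulated data with changes of 1 log2 unit, which does not test how differences near 1.5-fold are counted. They were run with Python 3.11.15, pandas 2.3.3, numpy 2.4.6 and matplotlib 3.10.9.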

Additional observations from a re-analysis of the deposited data

Results flagged for a closer look

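For 4 members the difference made by each drug had the opposite sign with and without the other drug, and the gap between the 2 differences was at least 1.5-fold. The difference itself was not tested, since each condition had 1 array. It is the same number for both drugs, because both use the same 4 arrays. For BNIP3L it was 0.96: dihydroberberine made a difference of 0.10 with sunitinib and -0.85 without it, and sunitinib one of 0.72 with dihydroberberine and -0.24 without it. Its 5 other probe sets gave smaller deviations, of 0.27 to 0.57. For ULK1 the gap was 0.70, with dihydroberberine at 0.21 beside sunitinib and -0.50 alone, on a single probe set. For GABARAPL2 it was 0.61, with dihydroberberine at 0.15 beside sunitinib and -0.45 alone, and its 3 other probe sets gave 0.54 to 0.66, of which 1 reached 1.5-fold. After quantile normalization it was 0.50, under that size. For TFEB it was -0.77, with dihydroberberine at -0.008 beside sunitinib and 0.76 alone. Upward gaps of this size were seen in 12.2% of all genes and downward gaps in 3.73%.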

How the results depend on the processing

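No paired analysis was possible because each condition had 1 array. The members' median differences kept within 0.05 to 0.16 (dihydroberberine), -0.02 to 0.06 (sunitinib) and 0.06 to 0.12 (combination) against untreated, 0.07 to 0.15 (combination against sunitinib), -0.01 to 0.06 (combination against dihydroberberine) and -0.01 to 0.07 (deviation from additivity). Medians over all genes also moved. For dihydroberberine against untreated they were -0.03 in the main setting, 0.05 without the filter and 0.04 after quantile normalization. The members' medians were 0.07, 0.07 and 0.16 there. Of 120 alternative counts and medians 76 stayed within the limits set for them and 44 counts did not. The 76 include 18 without the filter, which could not differ because all 41 members pass it. The 44 include 10 counts at a log2 size of 0.32 and 9 at 2-fold, where a different size is counted by design. The cause of the other moves was not tested. The tally therefore does not measure how steady the results are. The filter at the 75th percentile left 26 members and the mean of probe sets 38, so their counts have fewer members behind them. Depth is unknown for arrays, and signals near the background probes limit the dim members.

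The smaller fold size is a log2 difference of 0.32. In the setting of the second probe set, the 9 members with 1 probe set past the filter kept that one, ULK1 and TFEB among them. Without the dihydroberberine array another comparison stands in, not another processing. The combination against sunitinib replaces dihydroberberine against untreated, and sunitinib against untreated replaces the combination against dihydroberberine. Each count of members is followed in brackets by the share of all genes under the same setting. Dihydroberberine against untreated had 4 higher members (4.86%). With the mean of probe sets there was 1 (3.82%), with quantile normalization 7 (6.85%) and at the smaller fold 9 (16.4%). At 2-fold there were 0 (1.05%), and without the dihydroberberine array 2 (3.58%). It had 2 lower members (12.6%). There were 0 with the mean (9.56%), 1 at the 75th percentile filter (14.4%) and 9 at the smaller fold (25.6%). There were 0 at 2-fold (3.52%), 0 with the second probe set (11.5%) and 0 without the dihydroberberine array (1.47%). Sunitinib against untreated had 1 higher member (1.61%). There were 0 with the mean (0.929%), 0 at the 75th percentile (1.14%), 5 at the smaller fold (9.34%) and 0 at 2-fold (0.21%). It had 0 lower members (3.78%), and 7 at the smaller fold (15.6%). The combination against untreated had 9 higher members (6.85%). There were 4 with the mean (4.79%), 5 at the 75th percentile (6.99%) and 0 at 2-fold (1.16%). It had 2 lower members (7.24%). There were 0 with the mean (6.49%), 1 at the 75th percentile (8.46%) and 5 at the smaller fold (20.7%). There were 0 at 2-fold (1.5%) and 1 with the second probe set (7.51%), ATG2A, whose second probe set held the same values as the main one. The combination against sunitinib had 2 higher members (3.58%), 10 at the smaller fold (13.2%) and 0 at 2-fold (0.721%). The combination against dihydroberberine had 4 higher members (10.3%). There was 1 with the mean (6.28%), 2 at the 75th percentile (11.1%) and 1 with quantile normalization (8.84%). There were 8 at the smaller fold (21.9%), 0 at 2-fold (2.78%) and 1 without the dihydroberberine array (1.61%). With the second probe set there was 1 (9.36%), ULK1, which has no second probe set and kept its main one. It had 0 lower members (2.75%). There was 1 with the mean (2.32%), 1 with quantile normalization (3.82%), 2 at the smaller fold (13.4%) and 1 with the second probe set (3.17%). The deviation from additivity had 3 higher members (12.2%), 9 at the smaller fold (26.1%) and 0 at 2-fold (3.39%). It had 1 lower member (3.73%). There were 0 with the mean (2.48%), 0 at the 75th percentile (1.82%) and 2 at the smaller fold (13.6%). There were 0 at 2-fold (0.329%) and 2 with the second probe set (4.34%), ATG12 and TFEB, of which TFEB kept its main one.

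Of 28 member values past 1.5-fold, 7 kept that size under every alternative run for them. Among these 7, the values of PIK3C3 and the deviation of ULK1 had only 1 alternative, quantile normalization, since each gene has 1 probe set. The values of WIPI1 (combination against sunitinib) and of ATG4C and OPTN (combination against untreated) kept it under 3. On the second probe set 3 values had the opposite sign: ULK2 with -0.10 and BNIP3L with -0.076 in the combination against dihydroberberine, and ATG12 with -0.13 in the combination against untreated.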
